A study of Mus musculus with 12 samples.

Results

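The transcripts described here encode 10 parts of the hepatocyte cAMP pathway, from the glucagon receptor to the enzymes that remove cAMP again. The genes are Gcgr, Prkar1a, Creb1, Crtc2, Crem, Sik1, Pde4a, Pde4b, Pde4d and Pde3b. They were picked by symbol from a table of 36144 gene symbols by a rule that uses no measured value, although earlier results of these data were known when the list was drawn up. All 10 were in the table and all 10 passed the filter on low values, together with 11544 genes in all. The 12 libraries were made from polyadenylated RNA of primary mouse hepatocytes.

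The cells were taken from a WT C57/Bl6J mouse by collagenase, plated in serum, and then held in serum-free medium for 16 h. FDMn cells had 6 µM MnCl2 during those 16 h and then 10 µM forskolin with 1 µM dexamethasone for 5 h. FDI cells had 100 nM insulin for 1 h and then the same forskolin and dexamethasone for 5 h. These durations alone do not settle whether manganese or insulin stayed in the medium during the 5 h. FD cells had forskolin and dexamethasone alone for 5 h, and Mock cells had none of these agents. Each group held 3 libraries. Forskolin switches on adenylate cyclase directly, past the glucagon receptor, and dexamethasone is a synthetic glucocorticoid. The pair was always given together, so the share of each in a response cannot be told apart, and no library had manganese or insulin without them. The labels name a single mouse and do not say whether the libraries came from separate cultures, so the p-values measure only the spread between these libraries, which may be technical.

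Glucagon raises cAMP in hepatocytes through its G protein-coupled receptor and adenylate cyclase. cAMP releases the catalytic subunits of protein kinase A from their regulatory subunits, and the kinase phosphorylates CREB, while the coactivators of the CRTC family enter the nucleus once the salt-inducible kinases no longer hold them in the cytosol. CREB target genes in liver include those of glucose production, and also genes that damp the signal: short repressor forms of CREM, SIK1, and the phosphodiesterases that hydrolyse cAMP. PDE3B is in addition a known target of insulin signalling.

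On GRCm38, by the GENCODE M21 annotation, all 10 genes are protein-coding. Gcgr spans bases 120530699 to 120538986 of chromosome 11 and Prkar1a bases 109649405 to 109669656 of the same chromosome. Creb1 spans bases 64532645 to 64604548 of chromosome 1, and Crtc2 bases 90254163 to 90264125 of chromosome 3. Crem lies on chromosome 18 (bases 3266048 to 3337748) and Sik1 on chromosome 17 (bases 31844250 to 31855804). Among the phosphodiesterases, Pde4a lies on chromosome 9 (bases 21165714 to 21213248), Pde3b on chromosome 7 (bases 114415281 to 114539251), Pde4b on chromosome 4 (bases 102087543 to 102607259) and Pde4d on chromosome 13 (bases 108449948 to 109953461). Gcgr and Crem each overlap 1 annotated gene on the opposite strand, and Pde4d overlaps 5 genes, 2 of them on the opposite strand. Of these overlapping genes only Rps3a3, a pseudogene on the same strand as Pde4d, had values, at 0 to 0.668 TPM. The annotation gives 39 transcripts for Crem, 20 for Pde4d and 13 for Pde4b. The deposited table has a single value per gene, so the short repressor form of Crem, made from a promoter inside the gene, was not measured apart from the long activator forms, and the same holds for long and short PDE4 forms.

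The values are TPM, transcripts per 1000000, a share of each library corrected for transcript length, so levels can be set beside each other between genes. The number of reads behind them is unknown, and no counting interval is given. Between 10900 and 11161 genes a library had at least 1 TPM. Across genes, r between replicates was 0.981 to 0.991, where genes are not independent replicates. Of the hepatocyte markers, 7 were in the table, and their summed level was between 26144 and 36262 TPM in every library, far above the summed levels of other cell types. The 6 sinusoidal endothelial markers summed to 22.9 to 26.2 TPM in FDMn, 16.7 to 22.1 TPM in FDI, 19.1 to 27.7 TPM in FD and 15.2 to 16.1 TPM in Mock, so every Mock sum was below all others. The markers did not move together. Lyve1 averaged 1.43 TPM in Mock and 5.00 to 6.83 TPM in the other groups, and Pecam1 and Stab2 also averaged lowest in Mock. Kdr and Clec4g averaged highest in Mock (0.719 and 0.354 TPM), and Cdh5 lowest in FDI. The 7 Kupffer cell markers summed to 6.11 to 6.70 TPM in FDMn, 4.11 to 5.36 TPM in FDI, 4.23 to 5.72 TPM in FD and 3.17 to 4.73 TPM in Mock, so every FDMn sum was above all others. C1qb averaged 2.26 TPM in FDMn and 0.862 to 1.38 TPM in the other groups. Marco, Adgre1 and Cd5l also averaged highest in FDMn, but C1qa and Clec4f in FDI and Vsig4 in FD. All these levels were low. The 6 stellate cell markers summed to 4.06 to 4.81 TPM in FDMn, 3.34 to 3.45 TPM in FDI, 4.43 to 5.50 TPM in FD and 3.48 to 5.07 TPM in Mock. In the cholangiocyte list Spp1 and Sox9 carried the sum, which was 1359 to 1551 TPM in FDMn, 650 to 698 TPM in FDI, 676 to 735 TPM in FD and 898 to 964 TPM in Mock, while Krt19, Krt7 and Epcam averaged below 1 TPM in every group. Of 6 lymphocyte markers, Nkg7 was listed at 0 in every library. The part of these genes in the results below was not tested.

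**Figure D1:**
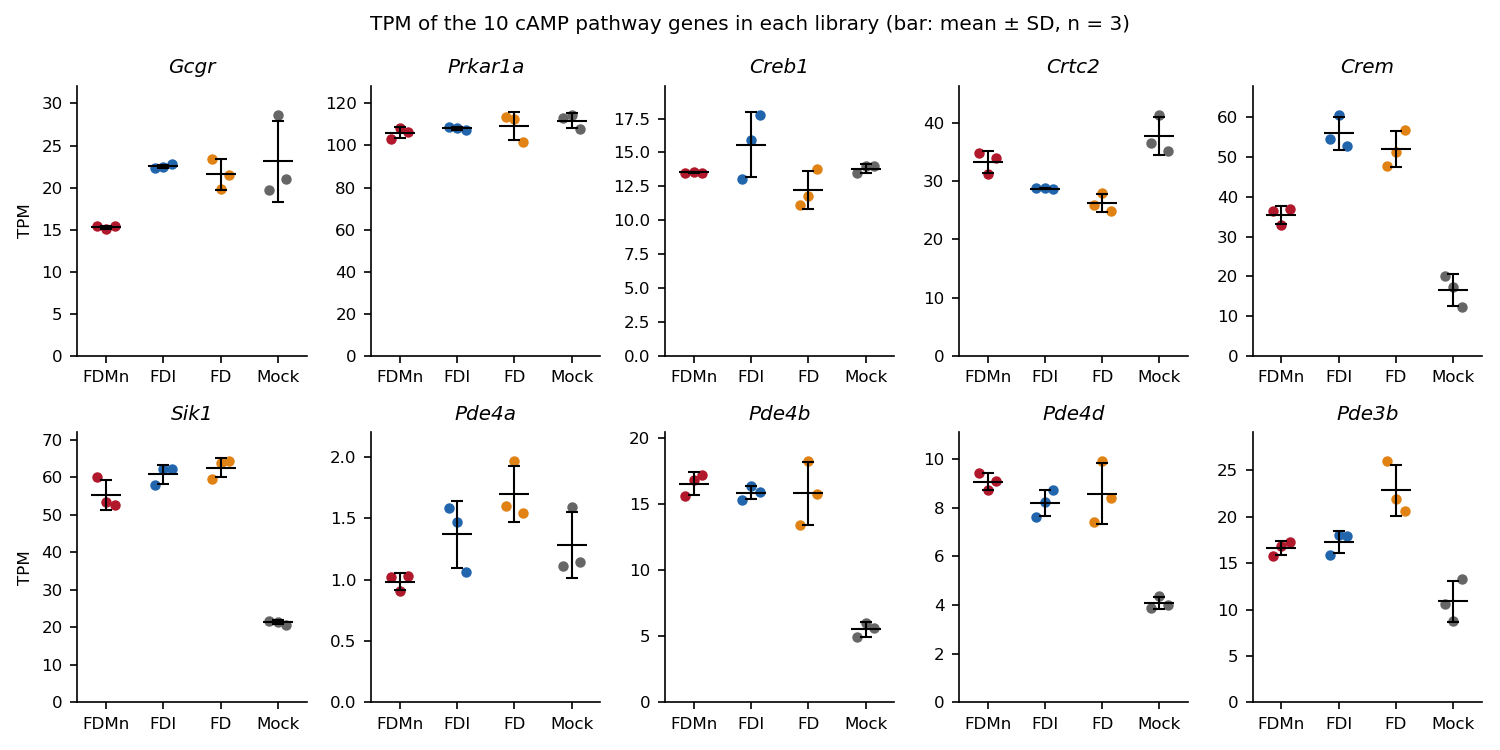
TPM of the 10 genes in every library (points), with the group mean and SD (black bars, n = 3 each); each panel has its own linear axis starting at 0, and groups run FDMn, FDI, FD, Mock. Crem, Sik1, Pde4b, Pde4d and Pde3b lay higher in all 9 libraries given forskolin and dexamethasone than in the 3 Mock libraries, and Gcgr was lowest in the 3 FDMn libraries.

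Set against untreated cells, FD cells give the response to the agent pair. Of Crem, Sik1 and the phosphodiesterase genes among the 10, all but Pde4a passed as higher. Crem, Sik1, Pde4b, Pde4d and Pde3b had 2.10-fold to 3.14-fold more transcript in FD than in Mock. The coactivator gene Crtc2 fell to 69.7% of its Mock level. The genes of the receptor (Gcgr), the kinase subunit (Prkar1a), the transcription factor (Creb1) and Pde4a did not pass the test. In a linear model of log2(TPM + 1) fitted over all 12 libraries with limma, 6 of the 10 genes passed at a Benjamini-Hochberg adjusted p under 0.05, 5 higher and 1 lower; over all genes tested 41.1% passed, 11.2% higher and 29.9% lower. The groups did not overlap for 6 of the 10, against 48% of all genes. The median log2 change was 0.58 over the 10 genes and −0.15 over all genes. On median-of-ratios scaling the median over all genes was −0.01 and the calls over all genes split into 2054 higher and 1982 lower, against 1296 higher and 3447 lower on TPM; the same 6 calls held with the same direction.

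Crem, whose inducible short forms repress CREB targets, was at 47.8, 51.4 and 56.8 TPM in FD libraries, against 20.2, 17.3 and 12.3 TPM in Mock libraries. The lowest FD library lay well above the highest Mock library. The log2 change was 1.62 ± 0.14 (SE; limma adjusted p = 2.19e-06), a ratio of means of 3.14. Sik1, the kinase that holds CRTC proteins in the cytosol, was at 59.6, 63.7 and 64.2 TPM in FD libraries, against 21.8, 21.5 and 20.7 TPM in Mock libraries. Both groups were tight and far apart, with a log2 change of 1.51 ± 0.07 (limma adjusted p = 4.96e-09).

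Among the phosphodiesterases, Pde4b was at 13.4, 18.2 and 15.8 TPM in FD libraries, against 4.94, 6.04 and 5.60 TPM in Mock libraries. The groups did not overlap, and the log2 change was 1.36 ± 0.11 (limma adjusted p = 9.99e-07). Pde4d was at 7.41, 9.90 and 8.40 TPM in FD libraries, against 3.90, 4.36 and 3.99 TPM in Mock libraries. It too had no overlap, with a log2 change of 0.91 ± 0.11 (limma adjusted p = 3.23e-05). Pde3b, which in liver and fat is the phosphodiesterase that insulin activates, was at 25.9, 21.9 and 20.6 TPM in FD libraries, against 10.6, 8.81 and 13.2 TPM in Mock libraries. Its groups were also apart, with a log2 change of 1.01 ± 0.13 (limma adjusted p = 5.47e-05). Pde4a was the least abundant of the 10 genes, at 1.60, 1.96 and 1.54 TPM in FD libraries, against 1.11, 1.59 and 1.14 TPM in Mock libraries. Its groups overlapped (log2 change 0.25 ± 0.15, 95% interval −0.08 to 0.58, limma adjusted p = 0.219).

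Crtc2, a CREB coactivator known for its part in fasting glucose production, was at 25.8, 28.0 and 24.9 TPM in FD libraries, against 36.5, 41.4 and 35.2 TPM in Mock libraries. Every FD library lay below every Mock library, with a log2 change of −0.50 ± 0.08 (limma adjusted p = 0.000238). Creb1 was at 11.1, 11.8 and 13.8 TPM in FD libraries, against 13.5, 13.99 and 13.99 TPM in Mock libraries. Its groups overlapped (log2 change −0.17, 95% interval −0.41 to 0.07, limma adjusted p = 0.245). Prkar1a, which encodes a regulatory subunit that holds protein kinase A inactive, was the most abundant of the 10, at 114, 112 and 102 TPM in FD libraries, against 113, 115 and 108 TPM in Mock libraries. The 95% interval of its log2 change was narrow, −0.15 to 0.08 (limma adjusted p = 0.642). Gcgr was at 23.4, 19.8 and 21.5 TPM in FD libraries, against 19.7, 28.6 and 21.1 TPM in Mock libraries, with Mock replicate 2 above all others. The log2 changes of Prkar1a (−0.03) and Gcgr (−0.08) turned positive on median-of-ratios scaling (0.13 and 0.08) and on quantile normalization (0.03 and 0.06), each time without passing.

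The promoter windows are shown because some of the 10 genes rose with forskolin and dexamethasone given together. The others did not pass or, for Crtc2, fell. RefSeq windows of GRCm38.p6, from 250 bases before to 50 bases after a gene start, were held for 6 of the genes (Gcgr, Prkar1a, Creb1, Pde4a, Pde4b and Pde4d), 16 windows in all. Crtc2, Crem, Sik1 and Pde3b had no entry, so most of the genes that rose are not covered. The full cAMP response element, TGACGTCA, was found in windows of Prkar1a, which did not pass the test, and of no other of the 6; that is 2 of the 16 windows, against 1.79% of the 32851 windows in the RefSeq table. The 2 Prkar1a windows that hold it overlap and share the same copy, which starts 49 bases before the start in the window shown. The shorter core TGACG on either strand, which a full element also contains, was found in 5 of the 16 windows, of Prkar1a, Pde4a and Pde4b, against 20.8% of all windows. The glucocorticoid receptor motif TGTTCT was found on either strand in 3 of the 16 windows, of Prkar1a and Pde4b (19% of all windows), and the FOXO core TGTTTAC in none of the 16 windows (3.65% of all windows). Windows of 1 gene can overlap and are not independent. The 250 bases before the start are given for 1 window each of a gene that did not pass and of a pair that rose, all on the plus strand, with TGACGTCA and TGACG on either strand in capitals. These windows are not typical of their genes: that of Prkar1a is 1 of the 2 with TGACGTCA. That of Pde4b is the only window of Pde4b with TGACG. A match is a description of letters, not a measured binding site.
Prkar1a, chr11:109650699-109650948: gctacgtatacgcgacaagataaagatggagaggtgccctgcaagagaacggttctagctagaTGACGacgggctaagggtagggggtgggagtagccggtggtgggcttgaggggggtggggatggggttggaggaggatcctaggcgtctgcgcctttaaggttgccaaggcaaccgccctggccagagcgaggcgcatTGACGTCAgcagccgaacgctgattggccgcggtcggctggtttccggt
Pde4b, chr4:102421305-102421554: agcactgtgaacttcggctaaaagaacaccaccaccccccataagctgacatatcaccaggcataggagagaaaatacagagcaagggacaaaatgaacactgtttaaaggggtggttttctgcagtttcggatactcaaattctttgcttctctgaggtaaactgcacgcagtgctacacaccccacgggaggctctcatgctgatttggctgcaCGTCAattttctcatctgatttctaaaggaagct
Pde4d, chr13:108653927-108654176: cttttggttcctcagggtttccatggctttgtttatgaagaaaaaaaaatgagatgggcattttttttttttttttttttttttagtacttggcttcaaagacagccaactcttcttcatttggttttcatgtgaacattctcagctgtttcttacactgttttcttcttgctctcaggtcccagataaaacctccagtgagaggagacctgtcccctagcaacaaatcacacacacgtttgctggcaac

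Taking TPM as a level per length, Pde3b and Pde4b were the most abundant of the 4 phosphodiesterase genes in every group, followed by Pde4d and Pde4a. Their summed level was 48.9 ± 2.89 TPM in FD and 21.8 ± 1.91 TPM in Mock (SD, n = 3 each). Pde4b held 60.6 ± 0.775% of the summed Pde4a, Pde4b and Pde4d level in FD and 50.7 ± 1.31% in Mock. The 12 other cAMP phosphodiesterase genes together were at 31.8 ± 5.28 TPM in FD and 26.8 ± 1.54 TPM in Mock. The 4 genes thus made up 60.7 ± 5.00% of the level of all cAMP phosphodiesterase genes in FD and 44.8 ± 3.03% in Mock.

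**Figure D2:**
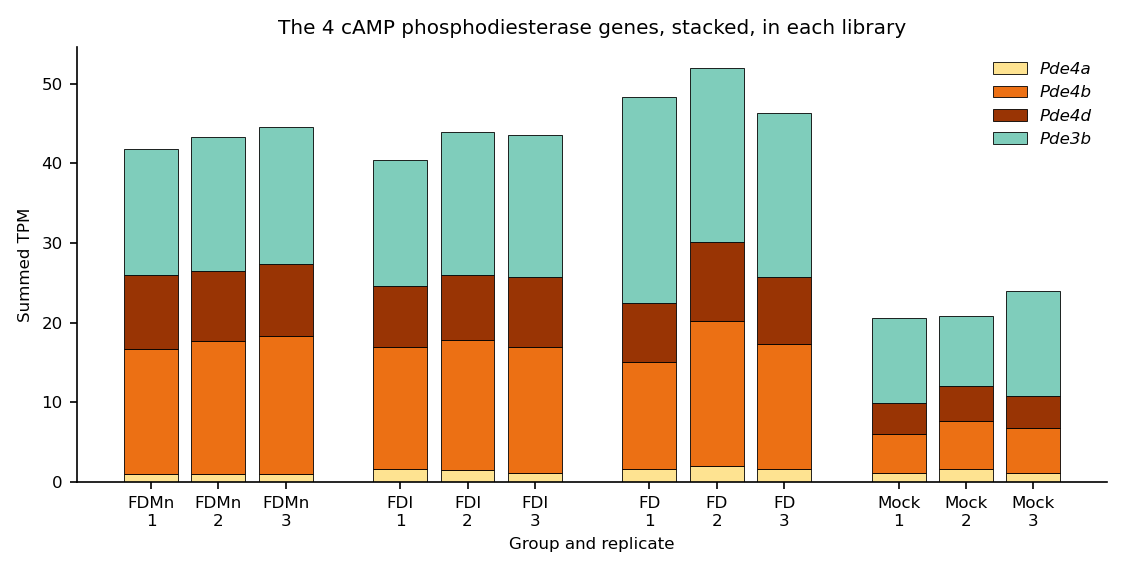
Stacked TPM of Pde4a, Pde4b, Pde4d and Pde3b (y axis, linear from 0) in each of the 12 libraries, ordered FDMn, FDI, FD, Mock and by replicate number. The sums were 41.8 to 44.6 TPM in FDMn, 40.4 to 44.0 TPM in FDI, 46.3 to 52.0 TPM in FD and 20.5 to 24.0 TPM in Mock.

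FDI against FD addresses insulin given ahead of the agent pair. None of the 10 genes passed the limma test between FDI and FD, where 14.5% of all genes did, 10.2% higher and 4.35% lower (1172 and 502 genes, against 847 and 696 on median-of-ratios scaling); 2 of the 10 (Creb1 and Pde3b) had an unadjusted p under 0.05. The rise of Crem, Sik1, Pde4b, Pde4d and Pde3b was thus present with insulin. Against Mock, the same 5 genes were higher and Crtc2 lower in FDI, 6 of 10 against 38.3% of all genes. Over all genes 12.9% were higher and 25.4% lower, or 1488 and 2928 genes, against 2161 and 1995 on median-of-ratios scaling. These 6 of the 10 had no overlap with Mock, against 51.1% of all genes. Crem was at 54.5, 60.6 and 52.8 TPM in FDI libraries, within or above the 47.8 to 56.8 TPM of FD libraries. The 95% interval of its log2 change, −0.20 to 0.41, still allows a change of moderate size. Sik1, at 57.9, 62.3 and 62.1 TPM in FDI libraries against 59.6, 63.7 and 64.2 TPM in FD libraries, had a narrower interval of −0.18 to 0.11. For Pde4b (15.3, 16.3 and 15.9 TPM in FDI libraries) the interval was −0.22 to 0.25, and for Pde4d (7.63, 8.22 and 8.73 TPM in FDI libraries) it was −0.29 to 0.18.

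Pde3b was the gene nearest to a call with insulin, at 15.9, 18.0 and 17.9 TPM in FDI libraries, against 25.9, 21.9 and 20.6 TPM in FD libraries. The groups did not overlap, as for 30.8% of all genes, and the log2 change was −0.38 ± 0.13 (limma adjusted p = 0.0676). It passed on median-of-ratios scaling (adjusted p = 0.0428) and quantile normalization (adjusted p = 0.0447), and without Mock replicate 2 (0.0375), Mock replicate 3 (0.0337) or FD replicate 3 (0.0491). Creb1 was at 13.0, 15.9 and 17.8 TPM in FDI libraries, against 11.1, 11.8 and 13.8 TPM in FD libraries. The groups overlapped (log2 change 0.32 ± 0.11, limma adjusted p = 0.0716), and the gene passed without FD replicate 3 (adjusted p = 0.0314) or FDI replicate 1 (adjusted p = 0.0199). Crtc2 was at 28.9, 28.8 and 28.6 TPM in FDI libraries, against 25.8, 28.0 and 24.9 TPM in FD libraries. All FDI libraries were higher, but the difference did not pass (log2 change 0.13 ± 0.08, limma adjusted p = 0.307).

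FDMn against FD addresses manganese. Crem, Gcgr and Pde3b fell to 68.1%, 70.9% and 72.8% of their FD levels, and Crtc2 rose 1.27-fold. Pde4b and Pde4d were at 1.05-fold and 1.06-fold of their FD levels and did not pass. In all, 4 of the 10 genes passed the limma test, 3 lower and 1 higher, against 15.1% of all genes (7.9% lower and 7.22% higher), and the median log2 change was −0.11 over the 10 genes and 0.00 over all genes. This comparison and that of insulin share the FD libraries, so their values are not independent.

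Crem was at 36.5, 32.8 and 36.8 TPM in FDMn libraries, against 47.8, 51.4 and 56.8 TPM in FD libraries. The groups were apart, as for 33% of all genes, and the log2 change was −0.54 ± 0.14 (limma adjusted p = 0.0226). Against Mock, 53.1% of the FD rise in mean TPM was present with manganese and 111% with insulin. Gcgr was at 15.4, 15.1 and 15.4 TPM in FDMn libraries, against 23.4, 19.8 and 21.5 TPM in FD libraries. The FDMn libraries were nearly identical and all lower (log2 change −0.47 ± 0.12, limma adjusted p = 0.0186). Crtc2 was at 34.8, 31.2 and 33.9 TPM in FDMn libraries, against 25.8, 28.0 and 24.9 TPM in FD libraries. It thus moved toward its Mock level (log2 change 0.33 ± 0.08, limma adjusted p = 0.0128). Pde3b was at 15.8, 16.9 and 17.2 TPM in FDMn libraries, against 25.9, 21.9 and 20.6 TPM in FD libraries. All FDMn libraries were lower (log2 change −0.43 ± 0.13, limma adjusted p = 0.0414).

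These 4 calls depended on single libraries, while each log2 change kept its direction in all 21 alternatives run. The Crem call was lost without FD replicate 2 (adjusted p = 0.0517), FD replicate 3 (0.058), FDMn replicate 1 (0.0566) or FDMn replicate 2 (0.0806), and with no filter on low values (0.0606). The Gcgr call was lost without FD replicate 1 (adjusted p = 0.0682) or FDMn replicate 1, 2 or 3 (0.0552, 0.0573 and 0.0507), and the Crtc2 call without FDMn replicate 1 (0.0584). The Pde3b call was lost in 11 of the 21 alternatives, namely without Mock replicate 1 (adjusted p = 0.0523), FD replicate 1 (0.141), FD replicate 2 (0.0697), FDI replicate 2 (0.056), FDI replicate 3 (0.0552) or FDMn replicate 1, 2 or 3 (0.127, 0.0916 and 0.0791), with no filter (0.0903), with no intensity trend (0.0518) and with the replicate number as a block (0.0604).

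Of the genes that did not pass with manganese, Sik1 was at 60.0, 53.3 and 52.7 TPM in FDMn libraries, against 59.6, 63.7 and 64.2 TPM in FD libraries. FDMn replicate 1 overlapped the FD range (log2 change −0.17 ± 0.07, limma adjusted p = 0.0994). Pde4a was at 1.02, 0.908 and 1.03 TPM in FDMn libraries, against 1.60, 1.96 and 1.54 TPM in FD libraries. These groups were apart (log2 change −0.44 ± 0.15, limma adjusted p = 0.0716), and the gene passed on quantile normalization (0.0402) and with no intensity trend (0.0232). The Pde4a mean in FDMn was 57.9% of that in FD, a drop that log2(TPM + 1) understates at such low levels. Over the alternatives its log2 change ran from −0.73 to −0.16. Pde4b was at 15.6, 16.8 and 17.2 TPM in FDMn libraries, with a log2 change of 0.07 and a 95% interval of −0.16 to 0.31. Pde4d was at 9.41, 8.73 and 9.09 TPM in FDMn libraries, with a log2 change of 0.08 and an interval of −0.15 to 0.32. Both sat inside the FD range, which FD replicates 1 and 2 spread widely. Creb1 was at 13.5, 13.6 and 13.5 TPM in FDMn libraries (interval −0.10 to 0.38) and Prkar1a at 103, 109 and 106 TPM (interval −0.16 to 0.08).

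**Figure D3:**
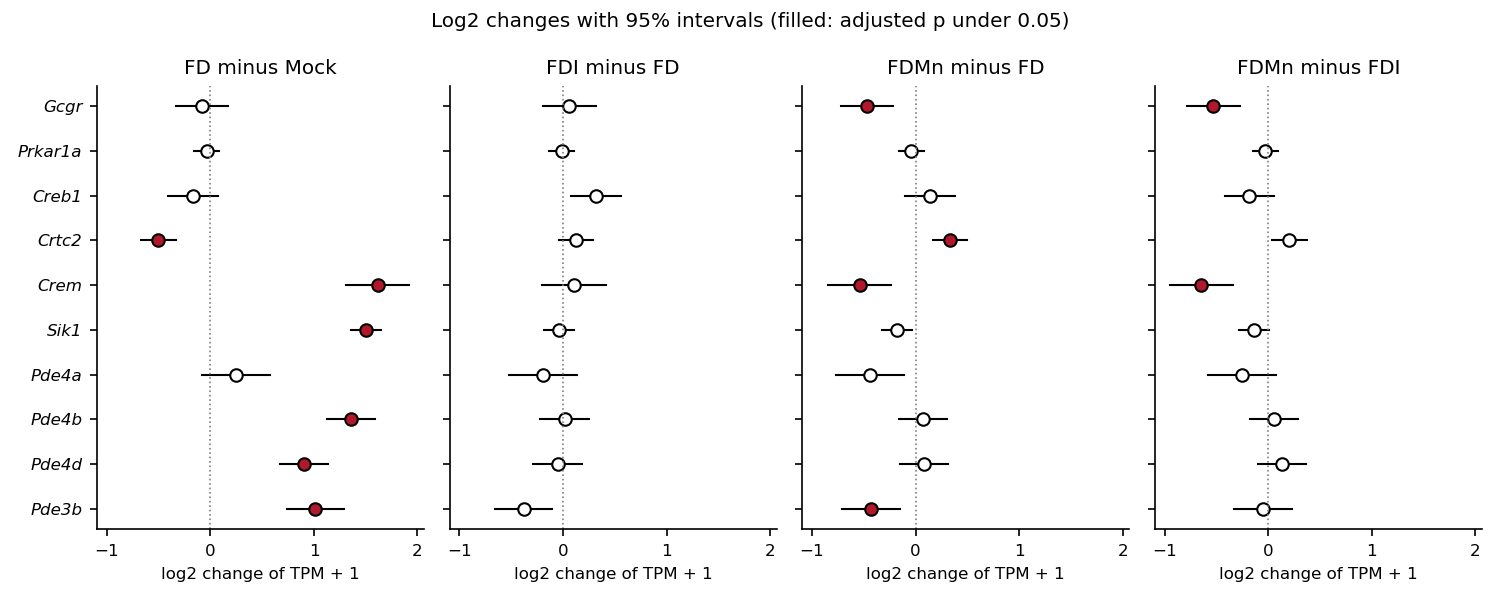
Log2 changes of TPM + 1 (x axis, the same scale in all panels) of the 10 genes for 4 comparisons, with 95% intervals from the limma fit (lines); filled points passed at an adjusted p under 0.05. Of the 10 genes, 6 passed for FD minus Mock, 0 for FDI minus FD, 4 for FDMn minus FD and 2 for FDMn minus FDI.

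The direct comparison of manganese with insulin, in which FD libraries add to the estimate of spread but not to the change, is also the test of whether the 2 agents changed the FD level by different amounts. Crem and Gcgr were lower with manganese, at 63.2% and 68% of their FDI levels, and these 2 of 10 genes passed the limma test, against 17.6% of all genes (11.9% lower and 5.68% higher, or 1375 and 656 genes, against 1005 and 821 on median-of-ratios scaling), so the share called among the 10 was near that of all genes. Crem was at 36.5, 32.8 and 36.8 TPM in FDMn libraries, against 54.5, 60.6 and 52.8 TPM in FDI libraries. The gap between the groups was wider than the spread within either (log2 change −0.65 ± 0.14, limma adjusted p = 0.00797). Gcgr was at 15.4, 15.1 and 15.4 TPM in FDMn libraries, against 22.3, 22.5 and 22.8 TPM in FDI libraries. Replicates within each group differed by less than 1 TPM (log2 change −0.53 ± 0.12, limma adjusted p = 0.00859). Both calls held in all 21 alternatives, at adjusted p up to 0.0358 for Crem and 0.0315 for Gcgr.

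Pde3b, lower than in FD in every FDMn and FDI library, did not differ detectably between them, with 15.8, 16.9 and 17.2 TPM in FDMn libraries against 15.9, 18.0 and 17.9 TPM in FDI libraries (log2 change −0.05, 95% interval −0.33 to 0.23, limma adjusted p = 0.837). Against Mock, 48.1% of its FD rise in mean TPM was present with manganese and 53.3% with insulin, and it passed as higher than Mock in both (limma adjusted p = 0.00299 and 0.00202). Crtc2 was higher in all FDMn libraries than in all FDI libraries but missed the threshold (log2 change 0.20 ± 0.08, limma adjusted p = 0.0878; 0.0362 on quantile normalization). In all, 5 of the 10 genes had no overlap between FDMn and FDI, against 40.5% of all genes. Manganese was present for 16 h before forskolin and insulin for 1 h, so agent and length of exposure cannot be told apart.

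Against Mock, FDMn had the same 5 genes higher and 1 gene lower, here Gcgr and not Crtc2, 6 of 10 against 42.7% of all genes (12% higher and 30.6% lower, or 1390 and 3535 genes, against 2129 and 2018 on median-of-ratios scaling); 8 of 10 had no overlap with Mock, against 55.2% of all genes. Gcgr was at 66.2% of its Mock mean in FDMn (log2 change −0.55 ± 0.12, limma adjusted p = 0.00249), and it passed as lower in FDMn against each of the 3 other groups. In the order of group means for Crem, FDI and FD were neighbours that did not differ beyond their spread, FDMn stood below them and Mock below FDMn (limma adjusted p = 6.78e-05 for FDMn against Mock). For Sik1, Pde4b and Pde4d the 3 treated groups did not differ from one another by the test and Mock stood apart. For Crtc2 the order from the top was Mock, FDMn, FDI and FD, and no neighbouring pair in it passed (limma adjusted p = 0.0878 to 0.307). In a bulk library a lower value cannot tell fewer cells of a type from less RNA per cell.

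Beyond these 10 genes, 67 other genes of the pathway or near it, such as Adra1b, were listed in 6 roles. Of the 67, 34 passed the filter. In FD against Mock 7 were higher and 6 lower, in FDI against FD 2 higher and 1 lower, in FDMn against FD 3 higher and 3 lower, and in FDMn against FDI 1 higher and 5 lower. The pathway genes other than the 10 thus passed in 13 of 34 cases for FD against Mock, where 41.1% of all genes passed, and in 3 of 34 for FDI against FD, where 14.5% passed. They passed in 6 of 34 cases for FDMn against FD, where 15.1% passed, and in 6 of 34 for FDMn against FDI, where 17.6% passed, so these shares were near or below those of all genes. For FD against Mock their median log2 change was −0.04, against −0.15 over all genes.

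Of the cAMP effectors and anchors, 3 of 10 measured rose in FD and none fell, where 11.2% of all genes rose and 29.9% fell. Rapgef4, the cAMP-activated exchange factor EPAC2, was at 13.7, 9.95 and 12.7 TPM in FD libraries, against 3.98, 3.53 and 4.40 TPM in Mock libraries. It then fell with both agents, to 5.33, 6.05 and 6.56 TPM in FDI libraries (log2 change −0.90 ± 0.12, limma adjusted p = 0.000527) and to 7.20, 6.98 and 6.91 TPM in FDMn libraries (log2 change −0.70 ± 0.12, limma adjusted p = 0.00278). All libraries with either agent lay between those of FD and Mock. Akap12, a scaffold that binds protein kinase A, rose 4.29-fold in FD over Mock (limma adjusted p = 1.01e-05). It was higher again with either agent, at 8.95 ± 1.37 TPM in FDI and 9.10 ± 0.830 TPM in FDMn, against 5.41 ± 1.10 TPM in FD (SD, n = 3 each; limma adjusted p = 0.0168 and 0.0133). The FDI call was lost without FD replicate 1 (0.0641) or FDI replicate 3 (0.0725) and with the other groups left out of the fit (0.0536), and the FDMn call without FD replicate 1 (0.0523) or FDMn replicate 1 (0.0587). Akap2, another protein kinase A anchor, rose 3.08-fold in FD over Mock and was lower in FDMn than in FDI (46.3 against 64.0 TPM, limma adjusted p = 0.0034). The annotated Pakap gene overlaps it on the same strand, so the split of reads between them is uncertain.

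In the list of CREB family members, coactivators and SIK kinases, 1 of 8 rose and 3 fell in FD, shares close to the 11.2% and 29.9% of all genes. Sik3, a salt-inducible kinase like Sik1, was at 49.8, 49.9 and 47.2 TPM in FD libraries, against 20.2, 24.8 and 21.6 TPM in Mock libraries (log2 change 1.11 ± 0.08, limma adjusted p = 2.95e-07). With manganese it fell to 37.3, 36.6 and 38.2 TPM (limma adjusted p = 0.00615 against FD). It was also lower than in FDI (limma adjusted p = 0.0124), a call lost without FDI replicate 3 (0.0524) and on quantile normalization (0.0535). Crtc3, a relative of Crtc2, fell like it, to 12.2 ± 4.20 TPM in FD against 23.6 ± 2.86 TPM in Mock (limma adjusted p = 0.0027). Sik2 fell to 77.1% of its Mock level in FD (limma adjusted p = 0.0179; 0.0655 without Mock replicate 3 and 0.16 on median-of-ratios scaling and 0.145 on quantile normalization), and it overlaps Ppp2r1b on the other strand. Creb3l3, a liver factor tethered in the endoplasmic reticulum membrane, was 1.70-fold higher in FDMn than in FD (limma adjusted p = 0.0148; 0.0562 without FD replicate 1 and 0.0629 without FDMn replicate 2) and 1.84-fold higher than in FDI (limma adjusted p = 0.00643). The CREB relative Atf1 passed narrowly as lower in FD than in Mock (limma adjusted p = 0.0472) and higher in FDMn than in FD (0.0483), and each of these calls was lost in 15 of 21 alternatives, at adjusted p up to 0.288 and 0.17. The first was lost without Mock replicate 2 or 3, FD replicate 1 or 3, FDMn replicate 2 or 3 or any FDI replicate, and the second without Mock replicate 3, FD replicate 1 or 3 or any FDI or FDMn replicate.

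Of 5 other cAMP phosphodiesterases measured, 1 rose and none fell in FD, against 11.2% and 29.9% of all genes. Pde10a, which hydrolyses both cAMP and cGMP, was at 7.80, 7.09 and 7.99 TPM in FD libraries, against 3.10, 3.13 and 4.36 TPM in Mock libraries (log2 change 0.94 ± 0.15, limma adjusted p = 0.000273). It was lower in FDMn than in FDI, at 4.91, 6.59 and 5.10 TPM in FDMn libraries against 8.36, 11.3 and 9.86 TPM in FDI libraries (limma adjusted p = 0.00498). Both adenylate cyclase genes that could be tested passed in FD, in opposite directions, where 41.1% of all genes passed. Adcy9 rose 1.38-fold (limma adjusted p = 0.011), and Adcy6 fell to 55.3% of its Mock level (limma adjusted p = 0.0255), a call lost without Mock replicate 1 (0.0923) or FD replicate 2 (0.0984), with no filter (0.0722) and on median-of-ratios scaling (0.0683) or quantile normalization (0.0792).

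Among 5 receptors and G proteins measured, 1 rose and 1 fell in FD, against 11.2% and 29.9% of all genes. Gnas, Gnai3 and Adora2b did not pass there. Gnai2, an inhibitory G protein subunit, fell to 80.6% of its Mock level in FD (limma adjusted p = 0.00357; 0.143 on median-of-ratios scaling). The α1-adrenergic receptor gene Adra1b rose 1.47-fold (limma adjusted p = 0.0159; 0.0635 without FD replicate 1, 0.052 without FD replicate 2 and 0.0702 with the other groups left out of the fit). In FDMn it was at 3.21, 3.53 and 3.08 TPM, against 5.36, 5.07 and 3.68 TPM in FD libraries (limma adjusted p = 0.0488, lost in 15 of 21 alternatives at adjusted p up to 0.157, among them without any 1 library other than FD replicate 3) and 5.32, 5.40 and 4.96 TPM in FDI libraries (limma adjusted p = 0.0113). Gnas, the stimulatory subunit that couples the glucagon receptor to adenylate cyclase, was at 87.6% of its FDI level in FDMn (limma adjusted p = 0.0242), a call lost on both rescalings, with no intensity trend, and without FDI replicate 1 or 2 or any FDMn replicate, at adjusted p up to 0.325. The adenosine receptor gene Adora2b was 1.51-fold higher in FDI than in FD (limma adjusted p = 0.0339), a call lost in 8 of 21 alternatives at adjusted p up to 0.109, among them without FD replicate 2 or 3 or any FDI replicate.

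Of 4 protein kinase A genes measured beside Prkar1a, 1 fell in FD, where 29.9% of all genes fell. The catalytic subunit gene Prkaca fell to 83.6% of its Mock level in FD (limma adjusted p = 0.0187). That call was lost without Mock replicate 3 (0.0766) or FD replicate 3 (0.0651), with the other groups left out of the fit (0.066), and on median-of-ratios scaling (0.379) or quantile normalization (0.224). None of the 4 passed for FDI against FD, FDMn against FD or FDMn against FDI in limma. Prkar1a made up 48.8 ± 0.898% of the summed level of the 4 regulatory subunit genes in FDMn, 48.6 ± 3.65% in FDI, 47.2 ± 2.73% in FD and 46.7 ± 2.65% in Mock (SD, n = 3 each), a range within the spread of the libraries.

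**Figure D4:**
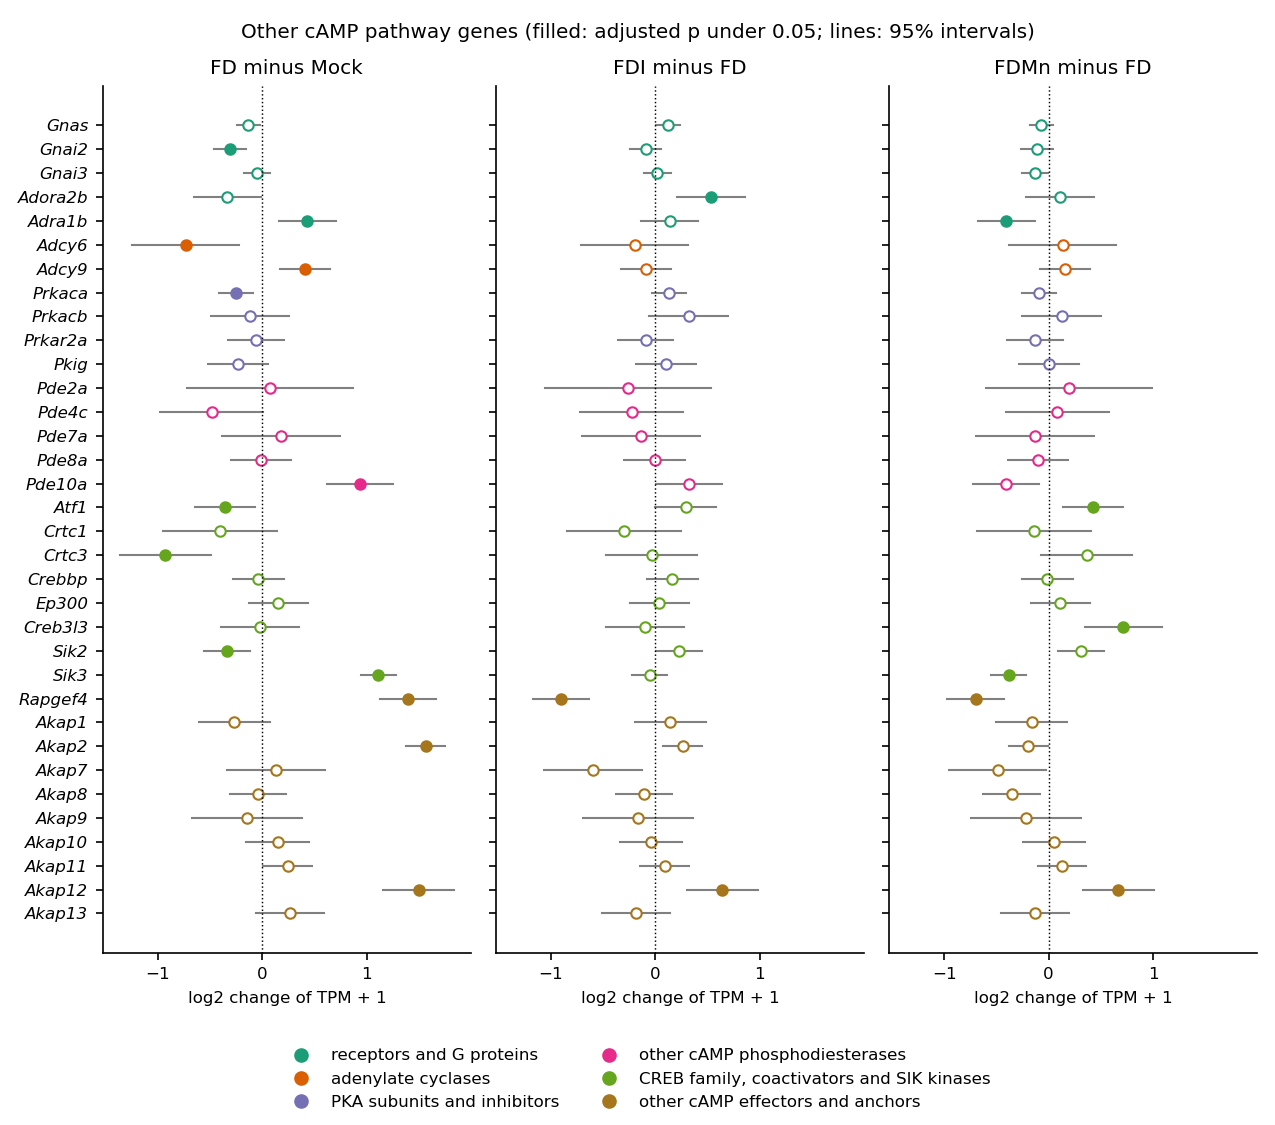
Log2 changes of TPM + 1 (x axis, the same scale in all panels) of the 34 other pathway genes that passed the filter, coloured by role, with 95% intervals (grey lines); filled points passed at a limma adjusted p under 0.05. Rapgef4 lay right of 0 for FD minus Mock and left of 0 for FDI minus FD and FDMn minus FD.

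Like-patterned genes were sought as a description, in which all points share the same libraries and the same step between Mock and the other groups. The genes most like Pde4b, Pde4d, Sik1 or Crem over the 12 libraries were taken by Pearson correlation of log2(TPM + 1). For Pde4b they were Fezf1 (r = 0.989), Pxk (r = 0.988) and Pde4d (r = 0.988). For Pde4d they were Pxk (r = 0.995), Pde4b and Fezf1 (r = 0.981). For Sik1 they were Fam222a (r = 0.998), Nudt4 (r = 0.996) and Cpt1a (r = 0.995), and for Crem they were Idh3a (r = 0.974), Pmvk (r = 0.974) and Tspan12 (r = 0.970). Idh3a and Pmvk had the same order of group means as Crem, with 31.6 and 98.6 TPM in FDMn, 42.0 and 225 TPM in FDI, 39.0 and 190 TPM in FD, and 21.01 and 23.1 TPM in Mock. Across the 10 genes Sik1, Pde4b and Pde4d varied most alike (r = 0.960 to 0.988 between pairs), and Crtc2 ran against Pde3b (r = −0.90) and Crem (r = −0.83).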

How the data were processed

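Poly-A selected RNA of 12 hepatocyte samples was sequenced as TruSeq libraries, per the labels' protocols. The authors deposited 1 table of TPM per gene symbol, in which every column sums to 1000000. The submitters' processing notes list kallisto 0.44.0, GRCm38.p6 and DESeq2, the last with no role. Not given in the sources used here: annotation release, strand setting, filters and the summing of transcripts to genes, so reads of a gene and an antisense partner cannot be told apart. TPM keeps no read depth, and as a share of a fixed total it moves when abundant transcripts move.

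Groups and replicate numbers were taken from the sample titles, and columns were matched by library name. Genes with at least 1 TPM in at least 3 samples (11544) were analysed as log2(TPM + 1), which understates changes of low genes. A model with 1 term per group over all 12 samples was fitted in limma 3.58.1 (R 4.3.3; prior variance with an intensity trend); tests were two-sided and Benjamini-Hochberg adjusted over all genes tested, with a threshold of 0.05. The fit was also run on simulated data with independent noise and few changed genes. Those settings differ from these data, so the run checked the code only. Folds and percentages of a level are ratios of group mean TPM. The replicate numbers did not pair the samples (see the closing part). The fit was repeated with other pseudocounts, filters and scalings, on 2 groups, without the trend, with a replicate block and without each sample.

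The members, lists and tests were chosen with earlier results of these data known. Of the 67 pathway genes, those named are the ones past the threshold, up to 4 per role and comparison by adjusted p, in the 4 comparisons described; like-patterned genes are the 3 with the highest correlation, predicted genes left out.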

Additional observations from a re-analysis of the deposited data

Results flagged for a closer look

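For 2 of the 10 genes the effects of manganese and of insulin on cells given forskolin and dexamethasone differed by a test of the difference itself, a share near the 17.6% of all genes that passed it. Crem was lower with manganese than with insulin by a log2 change of −0.65 (limma adjusted p = 0.00797), in 3 of 3 FDMn libraries against every FDI library. Gcgr was lower with manganese by a log2 change of −0.53 (limma adjusted p = 0.00859), again in 3 of 3 libraries.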

How the results depend on the processing

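Of 1254 comparisons of the 60 member results with an alternative, 1195 kept direction and side of the threshold, 21 lost a call, 10 gained one and 28 changed sign, all 28 for changes that passed in neither setting. The calls against Mock and those between FDMn and FDI were not lost in any of the 21 alternatives. The number of the 10 genes that passed for FDI minus FD was 1 on median-of-ratios scaling and 1 on quantile normalization, against 0, and 0 to 2 without single replicates. For FDMn minus FD it was 2 with no filter on low values, against 4, and 0 to 4 without single replicates. The replicate numbers were shared in name only: deviations of same-numbered samples correlated with r of −0.10 to 0.07 over 18 pairs, and 5 of 12 samples correlated best with their own number. With the replicate block 3 rather than 4 of the 10 genes passed for FDMn minus FD, Pde3b at an adjusted p of 0.0604, and the other 5 counts were unchanged.

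Signs turned as follows. On median-of-ratios scaling the log2 change was 0.077 for Gcgr and 0.127 for Prkar1a in FD minus Mock, −0.0325 for Pde4b in FDI minus FD, 0.0193 for Prkar1a in FDMn minus FDI, 0.0902 for Gcgr and 0.065 for Prkar1a in FDI minus Mock, and 0.0843 for Prkar1a and 0.122 for Creb1 in FDMn minus Mock. On quantile normalization it was 0.0555 for Gcgr and 0.027 for Prkar1a in FD minus Mock, −0.0359 for Pde4b in FDI minus FD, 0.00851 for Prkar1a in FDMn minus FD, 0.0742 for Prkar1a and 0.00154 for Pde3b in FDMn minus FDI, 0.0584 for Gcgr in FDI minus Mock, and 0.0356 for Prkar1a and 0.109 for Creb1 in FDMn minus Mock. Without single replicates the log2 change ran from −0.182 to 0.0783 for Gcgr and −0.0634 to 0.0149 for Prkar1a in FD minus Mock. It ran from −0.0625 to 0.0157 for Prkar1a, −0.0914 to 0.117 for Pde4b and −0.14 to 0.0465 for Pde4d in FDI minus FD, from −0.0344 to 0.174 for Pde4b and −0.00703 to 0.18 for Pde4d in FDMn minus FD, and from −0.121 to 0.139 for Gcgr and −0.0105 to 0.152 for Pde4a in FDI minus Mock. The Gcgr sign turned without Mock replicate 2, Pde4a without FDI replicate 1, and the others without an FD replicate or, for Pde4b, FDI replicate 2. The cause was not tested. Lower genes made up 72.7% of the FD minus Mock calls over all genes on TPM, 49.1% on median-of-ratios scaling and 55% on quantile normalization. For FDI minus Mock these shares were 66.3%, 48% and 55.2%, for FDMn minus Mock 71.8%, 48.7% and 54%, for FDI minus FD 30%, 45.1% and 46.5%, and for FDMn minus FDI 67.7%, 55% and 51.6%. Read depth is unknown, so it sets no stated limit. The alternatives for the 34 other pathway genes were added after seeing the data.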
